A study of Rattus norvegicus with 16 samples.

Results

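The satellite cell and myogenic genes described here are 7 genes picked from the count table by symbol: Pax3, Pax7, Myf5, Myf6, Myod1, Myog and Megf10. They are 7 of 23285 genes in the table, and all 7 passed the filter on low counts that left 16948 genes for testing. Sprague Dawley rats, with no allele or treatment named in the labels, gave total RNA from the Achilles tendon, the patellar tendon, the supraspinatus tendon of the shoulder and the flexor tendons of the forepaw. Each tendon had 4 libraries, 16 in all, and all 6 pairs of tendons were compared. The sources used here give neither age nor sex, and the labels do not say that a number in a title marks 1 animal across tendons, so p-values measure the spread between these libraries. Levels are in CPM, counts scaled to a common library size with TMM factors (edgeR's trimmed mean of M-values), and transcript lengths were not used, so levels of different genes are not compared.

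Skeletal muscle is repaired by satellite cells, which lie between a muscle fibre and its basal lamina. Pax7, and in some muscles Pax3, are the paired-box factors that keep these cells in the muscle lineage, and Megf10 is a surface receptor that takes part in their proliferation. Myf5 and Myod1 encode basic helix-loop-helix factors that commit cells to the lineage, and Myog encodes the factor that drives their differentiation into fibres. Myf6 is the member of this factor family most abundant in mature fibres. These factors bind the E-box, a short DNA motif, in the promoters of muscle genes. In adult fibres Myod1 is known to be more abundant in fast muscle and Myog in slow muscle.

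RefSeq promoter entries on the rat build GRCr8 were matched for 5 of the 7 genes. The Myog and Myf6 promoters are shown because they held motifs read by these and partner factors, and because both genes varied with muscle content below. Each line gives the 250 bases before the RefSeq start, 5′ to 3′, with motif matches in capitals.
Myog, chr13:48297226-48297475, plus strand: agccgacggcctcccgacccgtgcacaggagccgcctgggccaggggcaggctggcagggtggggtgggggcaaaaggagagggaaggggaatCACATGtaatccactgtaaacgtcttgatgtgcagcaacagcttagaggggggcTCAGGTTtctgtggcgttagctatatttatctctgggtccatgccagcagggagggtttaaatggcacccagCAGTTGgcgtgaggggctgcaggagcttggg
Myf6, chr7:44701314-44701563, minus strand: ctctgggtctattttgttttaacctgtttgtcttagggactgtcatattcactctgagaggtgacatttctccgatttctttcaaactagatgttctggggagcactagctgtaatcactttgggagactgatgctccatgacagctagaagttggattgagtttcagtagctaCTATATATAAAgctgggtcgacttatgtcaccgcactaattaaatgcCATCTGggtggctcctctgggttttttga
In the Myog promoter the capitals mark E-boxes (CANNTG) that begin 157 and 31 bases before the start and the MEF3 core (TCAGGTT) 103 bases before it. In the Myf6 promoter they mark a match to the MEF2 consensus 76 bases before the start, which runs into a TATA box (TATAAA) 71 bases before it, and an E-box 29 bases before it. Both strands were searched. Among 33469 RefSeq promoters of the same length 65.5% held an E-box, 3.3% the MEF3 core, 2.96% the MEF2 consensus and 12.9% the TATA box. The Pax3 promoter held 1 E-box, and those of Pax7 and Myf5 held none of the 4 motifs. Myf5 and Myf6 are direct neighbours in this RefSeq annotation, and a further RefSeq locus overlaps Megf10, so with an unstated strand setting its counts may include reads of that locus.

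Library totals ran from 63397591 to 102491699 counts, and 3 counts in a library, the limit that a count of 0 allows, stood for 0.0266 to 0.0485 CPM. Such limits cover counting error only. All 6 tendon fibroblast markers (Scx, Mkx, Tnmd, Fmod, Thbs4 and Col1a1) were present in every tendon, with a summed level of 2.34 to 12.8% of a library. Muscle fibre markers, of which 20 of 25 were measured, summed to 13.8 to 25.8% in supraspinatus libraries and to 1.74 to 6.49% in flexor libraries. Their sum was 0.0417, 1.2, 0.249 and 1.16% in Achilles 1 to 4 and 3.37, 0.131, 0.037 and 0.467% in patellar 1 to 4. None of these markers was at 0 in all libraries of a tendon. Thus Achilles 1 and patellar 3 had the least muscle and patellar 1 far more than the other patellar libraries. In such bulk samples fewer cells of a type and less RNA per cell cannot be told apart.

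Among the 4 tendons 6 of the 7 genes differed at an adjusted p under 0.05 (edgeR's quasi-likelihood test, Benjamini-Hochberg over all genes), where 75.6% of all genes tested did. The exception was Pax3 (adjusted p = 0.25). The count was 7 without Achilles 1, against 75.6% of all genes there as well. Pax7, Myf5, Myf6, Myod1 and Myog had their highest mean CPM in supraspinatus tendon, then in the flexors, and low means in the Achilles and patellar tendons. Megf10 had another order, with its lowest levels in the flexors. Over the 16 libraries the log2 CPM of those 5 genes were alike, with Pearson r of 0.89 to 0.99 among them, whereas r was 0.01 to 0.34 for Megf10 with each of the others. The points share library scaling and muscle content, and these values are descriptions.

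**Figure D1:**
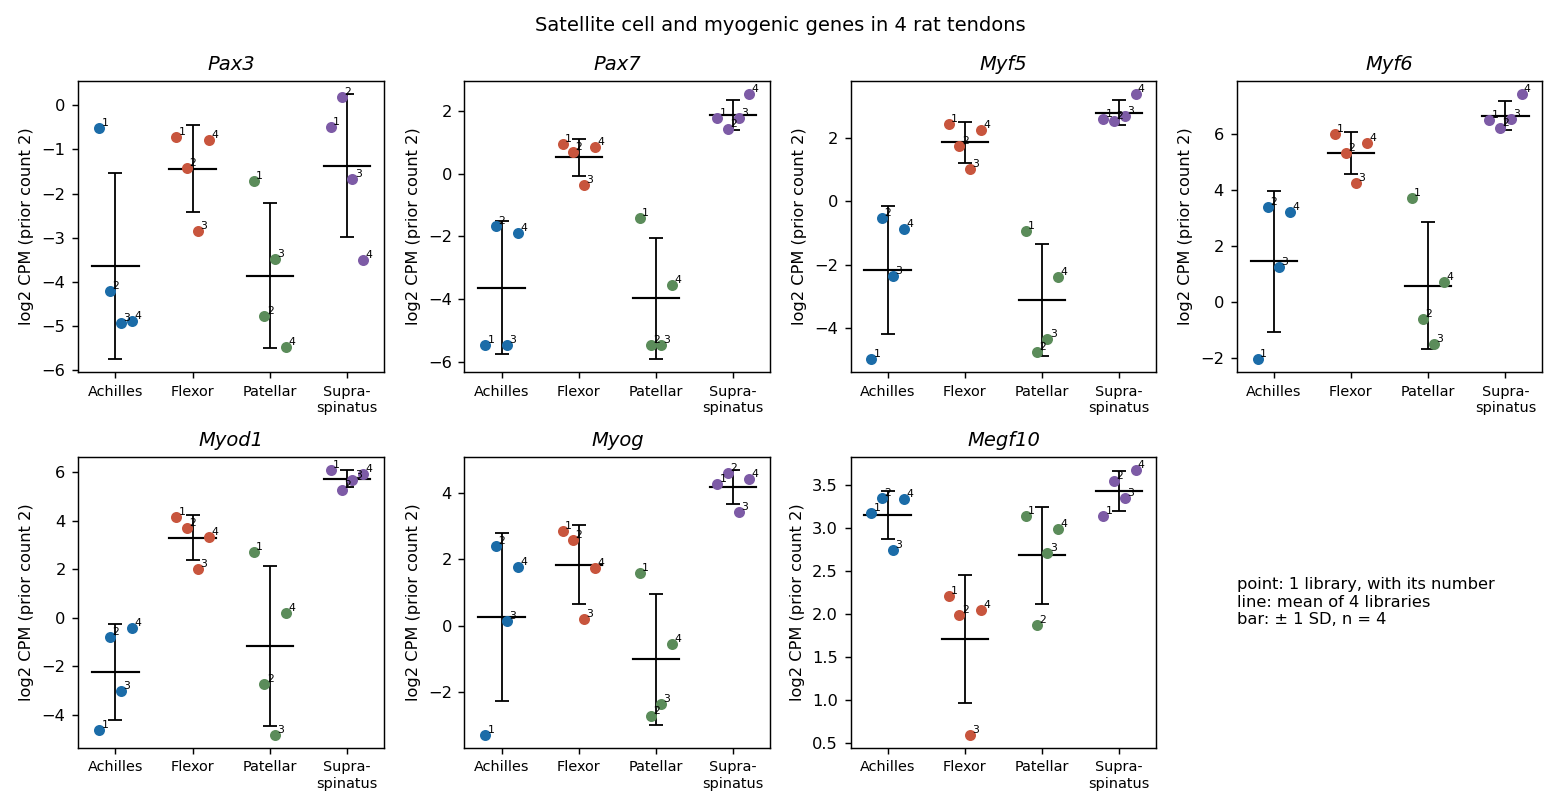
Log2 CPM (prior count 2) of the 7 genes in each of 16 libraries, by tendon; points are libraries with their number, lines are means of 4 libraries and bars are 1 SD. Pax7, Myf5, Myf6, Myod1 and Myog separate supraspinatus from the other tendons without overlap, and the share of all genes that do so was not counted. Achilles 1 has the highest Pax3 of its tendon but the lowest Myf5, Myf6, Myod1 and Myog, and Megf10 is lowest in the flexors.

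Pax7, the defining factor of satellite cells, stood at 3.42, 2.65, 3.36 and 5.74 CPM in supraspinatus 1 to 4. In flexor 1 to 4 it was at 1.88, 1.58, 0.759 and 1.76 CPM. Achilles libraries 1 to 4 had 0, 28, 0 and 22 counts and patellar libraries 1 to 4 had 29, 0, 0 and 5 counts. Thus 4 hindlimb libraries had no Pax7 count at all, and no flexor or supraspinatus library overlapped a hindlimb one. For this and the separations without overlap named below, the share of all genes that separate so was not counted. On average Pax7 was at 3.79 ± 1.35 CPM in supraspinatus (SD, n = 4) and at 1.5 ± 0.506 CPM in flexor libraries, against 0.134 ± 0.155 CPM for Achilles and 0.104 ± 0.168 CPM for patellar libraries. The log2 fold change was -4.84 ± 1.13 (SE) for Achilles over supraspinatus (adjusted p = 0.0025) and -5.13 ± 1.16 for patellar over supraspinatus (adjusted p = 0.0018). It was -3.50 ± 1.08 for Achilles over flexor (adjusted p = 0.015) and 3.79 ± 1.11 for flexor over patellar tendon (adjusted p = 0.011). Flexor and supraspinatus did not overlap, but their difference of -1.34 ± 0.95 missed the threshold (adjusted p = 0.26).

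Myf5, the early commitment factor, followed the same order. It was at 6.01, 5.81, 6.45 and 10.4 CPM in supraspinatus 1 to 4 and at 5.35, 3.32, 1.99 and 4.72 CPM in flexor 1 to 4. Achilles 1 to 4 had 1, 65, 17 and 47 counts of it and patellar 1 to 4 had 41, 1, 2 and 13. The forelimb libraries all exceeded the hindlimb ones, and Achilles 2 and 4 and patellar 1, the hindlimb libraries with the most muscle, had the most Myf5 of their tendons. Its log2 fold change was -4.39 ± 0.89 for Achilles over supraspinatus (adjusted p = 0.00091), -5.31 ± 0.95 for patellar over supraspinatus (adjusted p = 0.0003) and 4.41 ± 0.92 for flexor over patellar tendon (adjusted p = 0.0011). Achilles over flexor gave -3.49 ± 0.86 (adjusted p = 0.004). Mean levels were 7.16 ± 2.16 CPM in supraspinatus and 3.84 ± 1.5 CPM in the flexors (SD, n = 4), which did not pass (adjusted p = 0.36).

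Myf6, the factor of mature fibres and the chromosomal neighbour of Myf5, stood at 88.7, 73.2, 91 and 169 CPM in supraspinatus 1 to 4. In flexor 1 to 4 it was at 63.6, 39.4, 19 and 50.7 CPM. It was at 0.221, 10.3, 2.33 and 9.08 CPM in Achilles 1 to 4 and at 12.8, 0.638, 0.33 and 1.6 CPM in patellar 1 to 4. The supraspinatus libraries lay above all others, and the hindlimb libraries spread widely within each tendon. The log2 fold change was -4.27 ± 1.12 for Achilles over supraspinatus (adjusted p = 0.0054) and -4.77 ± 1.15 for patellar over supraspinatus (adjusted p = 0.0027). It was 3.48 ± 1.08 for flexor over patellar tendon (adjusted p = 0.015). The supraspinatus mean of 105 ± 42.9 CPM and the flexor mean of 43.2 ± 18.9 CPM did not differ beyond the threshold (adjusted p = 0.3). Achilles over flexor gave -2.98 ± 1.06 (adjusted p = 0.031), a call that was lost without Achilles 3 (adjusted p = 0.081), without flexor 1 (0.066) and without flexor 4 (0.055).

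Myod1, the other commitment factor, had the largest fold change of the 7 genes over the 6 pairs. It was at 67.4, 38, 51.4 and 59.5 CPM in supraspinatus 1 to 4 and at 17.8, 13, 4 and 10 CPM in flexor 1 to 4. Achilles 1 to 4 had 2, 54, 10 and 65 counts, at most 0.723 CPM. Patellar 1 to 4 had 539, 9, 1 and 89 counts, and patellar 1 with 6.56 CPM lay within the range of the flexors. Achilles over supraspinatus gave a log2 fold change of -7.29 ± 1.32 (adjusted p = 0.00037) and Achilles over flexor -5.02 ± 1.21 (adjusted p = 0.0035). Patellar over supraspinatus gave -4.78 ± 1.15 (adjusted p = 0.0028). Means were 54.1 ± 12.5 CPM in supraspinatus and 11.2 ± 5.78 CPM in the flexors, without overlap, and this pair missed the threshold at -2.27 ± 1.02 (adjusted p = 0.081). Flexor over patellar tendon, at 2.51 ± 1.05, missed the threshold (adjusted p = 0.059), but not without patellar 1, where it was 4.68 (adjusted p = 0.0017).

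Myog, which drives differentiation, was at 19.5, 24.3, 10.8 and 21.5 CPM in supraspinatus 1 to 4. In flexor 1 to 4 it was at 7.28, 5.97, 1.13 and 3.3 CPM. Achilles 1 to 4 had 0.0797, 5.27, 1.09 and 3.42 CPM, so that Achilles 2 and 4 lay within the flexor range, as they did for none of Pax7, Myf5, Myf6 and Myod1. Patellar 1 to 4 had 2.98, 0.128, 0.172 and 0.662 CPM. Supraspinatus exceeded Achilles (log2 fold change of Achilles over supraspinatus -2.95 ± 1.02, adjusted p = 0.026) and patellar tendon (patellar over supraspinatus -4.26 ± 1.09, adjusted p = 0.0041). Without Achilles 3 the Achilles call was lost (adjusted p = 0.067). Achilles over flexor, at -0.85 ± 0.96, did not pass (adjusted p = 0.49). Flexor over patellar tendon gave 2.15 ± 1.01 (adjusted p = 0.089), and without patellar 1 it gave 3.75 (adjusted p = 0.01).

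Megf10, the surface receptor, was at 8.95, 10.1, 6.66 and 10 CPM in Achilles 1 to 4 and at 8.77, 11.6, 10.1 and 12.7 CPM in supraspinatus 1 to 4. Patellar 1 to 4 had 8.77, 3.65, 6.52 and 7.93 CPM. The flexors had the least, with 4.6, 3.94, 1.49 and 4.08 CPM in flexor 1 to 4, and overlapped the patellar libraries through patellar 2. Across tendons its level did not track muscle: Achilles 1, with 0.0417% of fibre markers, had 8.95 CPM and supraspinatus 1, with 19.4%, had 8.77 CPM. Within each tendon the library with the most fibre markers had the most Megf10 (Achilles 2, flexor 1, patellar 1 and supraspinatus 4). Only in the flexors did the library with the least fibre markers also have the least Megf10 (flexor 3). Flexor was lower than supraspinatus tendon (log2 fold change -1.61 ± 0.32, adjusted p = 0.00076), Achilles was higher than flexor (1.34 ± 0.31, adjusted p = 0.0029), and flexor was lower than patellar tendon (-0.93 ± 0.31, adjusted p = 0.022). The last call was lost without patellar 1 (-0.80, adjusted p = 0.055). Achilles over supraspinatus was -0.27 ± 0.31 (adjusted p = 0.49), and on plain library totals it was 0.14 (adjusted p = 0.7).

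Pax3, the paralogue of Pax7, had 0 to 5 counts in 6 of the hindlimb libraries and overlapped between all tendons. Achilles 1 to 4 had 76, 3, 1 and 1 counts and patellar 1 to 4 had 23, 1, 5 and 0. Flexor 1 to 4 had 62, 35, 12 and 54 counts and supraspinatus 1 to 4 had 56, 88, 21 and 4. Achilles 1, which had no Pax7 count and 1 count of Myf5, thus had more Pax3 counts than any library but supraspinatus 2. None of the 6 pairs passed, the smallest adjusted p being 0.1 for patellar and supraspinatus tendon. Without Achilles 1, Pax3 was lower in Achilles than in flexor (adjusted p = 0.014) and supraspinatus tendon (adjusted p = 0.0073). Patellar was then lower than supraspinatus tendon (adjusted p = 0.036), as also without patellar 1 (adjusted p = 0.031).

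Schwann cell markers, the glia of peripheral nerve, moved with Pax3 in some of these libraries. The 8 measured markers, out of 8 listed, summed to 0.819% in Achilles 1 and to 0.141, 0.136 and 0.116% in Achilles 2 to 4. Their sum was 0.248 to 0.397% in the flexors, 0.0855 to 0.149% in patellar and 0.0768 to 0.0942% in supraspinatus libraries. Supraspinatus 2 had the most Pax3 (88 counts) with 0.0935% of Schwann cell markers, so the order of the libraries differed between them. No Schwann cell marker was at 0 in all libraries of a tendon. Melanocyte markers, 4 of 6 measured, summed to 42.9 CPM in Achilles 1 and 34.1 to 45.6 CPM over the Achilles libraries. They summed to 63.5 to 74.6 CPM in supraspinatus libraries, where Tyrp1 was at 0. Mitf made up most of these sums, with means of 36.5 CPM in Achilles and 68.8 CPM in supraspinatus libraries. Pmel, at means of 2.56 and 1.84 CPM, was higher in Achilles than in supraspinatus tendon (log2 fold change 0.47 ± 0.18, adjusted p = 0.039). The part of either cell type in the Pax3 counts was not tested.

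**Figure D2:**
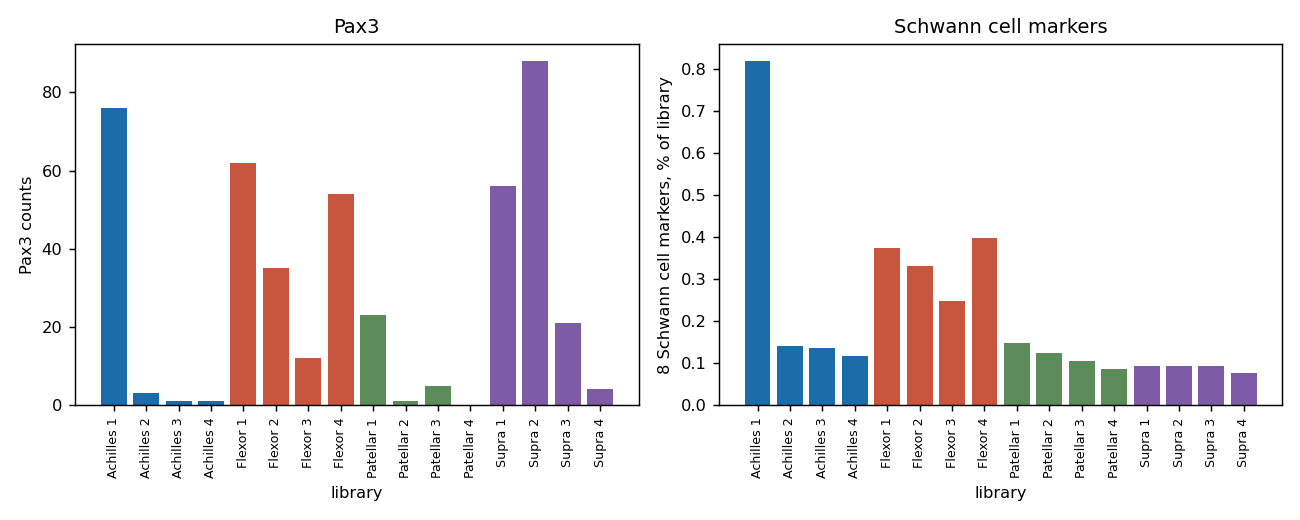
Pax3 counts (left) and the sum of 8 Schwann cell markers as a percentage of the TMM-scaled library total (right) in each library, coloured by tendon, with Supra for supraspinatus. Achilles 1 is high in both, with 76 counts and 0.819%, while supraspinatus 2 has 88 Pax3 counts and 0.0935% of Schwann cell markers.

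By pair, most calls set supraspinatus or flexor tendon against the hindlimb tendons. In Achilles over supraspinatus 5 genes were lower (Pax7, Myf5, Myf6, Myod1 and Myog) and none higher, against 24.7% of all genes lower and 25.4% higher. The same 5 were lower in patellar than in supraspinatus tendon, against 27.5% of all genes lower and 28.8% higher, and without patellar 1 all 7 passed, against 56.3% of all genes. In Achilles over flexor Pax7, Myf5, Myf6 and Myod1 were lower and Megf10 higher, against 24.1 and 23.5% of all genes. In flexor over patellar tendon Pax7, Myf5 and Myf6 were higher and Megf10 lower, against 25.8 and 24.7%. The median log2 fold change of the 7 genes was -4.27 in Achilles over supraspinatus and -4.77 in patellar over supraspinatus, beside 0.05 for all genes in either pair. For the 20 fibre markers it was -5.24 and -4.18, with 16 and 20 of them lower and none higher. Patellar 1 moved the folds of the patellar tendon by more than 1.5 times, and the calls named next were kept. Without it, patellar over supraspinatus gave -7.36 for Pax7, -6.67 for Myf5, -6.96 for Myf6, -7.00 for Myod1 and -5.90 for Myog. Flexor over patellar tendon then gave 5.97 for Pax7, 5.73 for Myf5 and 5.62 for Myf6. By the same measure Achilles 2 moved Pax7 in Achilles over flexor (-4.21 without it) and over supraspinatus (-5.60) and Myog in Achilles over supraspinatus (-3.66). Achilles 4 moved Myod1 in Achilles over flexor (-5.66) and over supraspinatus (-7.93).

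The forelimb pair and the hindlimb pair gave few calls. In flexor over supraspinatus Megf10 was lower and no other gene passed, against 24.3% of all genes lower and 23.4% higher. Here the count depended on the fit: limma-voom called 4 genes (47.6% of all genes) and a fit of these 8 libraries alone 5 (49.5% of all genes). The count was 2 without Achilles 1 (49.5% of all genes), 3 without patellar 1 (50% of all genes) and 2 without patellar 3 (47.8% of all genes). In Achilles over patellar tendon edgeR called none of the 7, with 1 at an unadjusted p under 0.05 (Myod1, log2 fold change -2.52 ± 1.13, adjusted p = 0.21), where 3.1% of all genes were higher and 2.06% lower. DESeq2 and limma-voom also called none of the 7 in this pair. With Achilles 1 and patellar 1 both left out, Myf5 (2.67, adjusted p = 0.038), Myf6 (3.07, adjusted p = 0.015) and Myog (3.33, adjusted p = 0.023) were higher in Achilles than in patellar tendon, against 8.09% of all genes called in either direction.

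**Figure D3:**
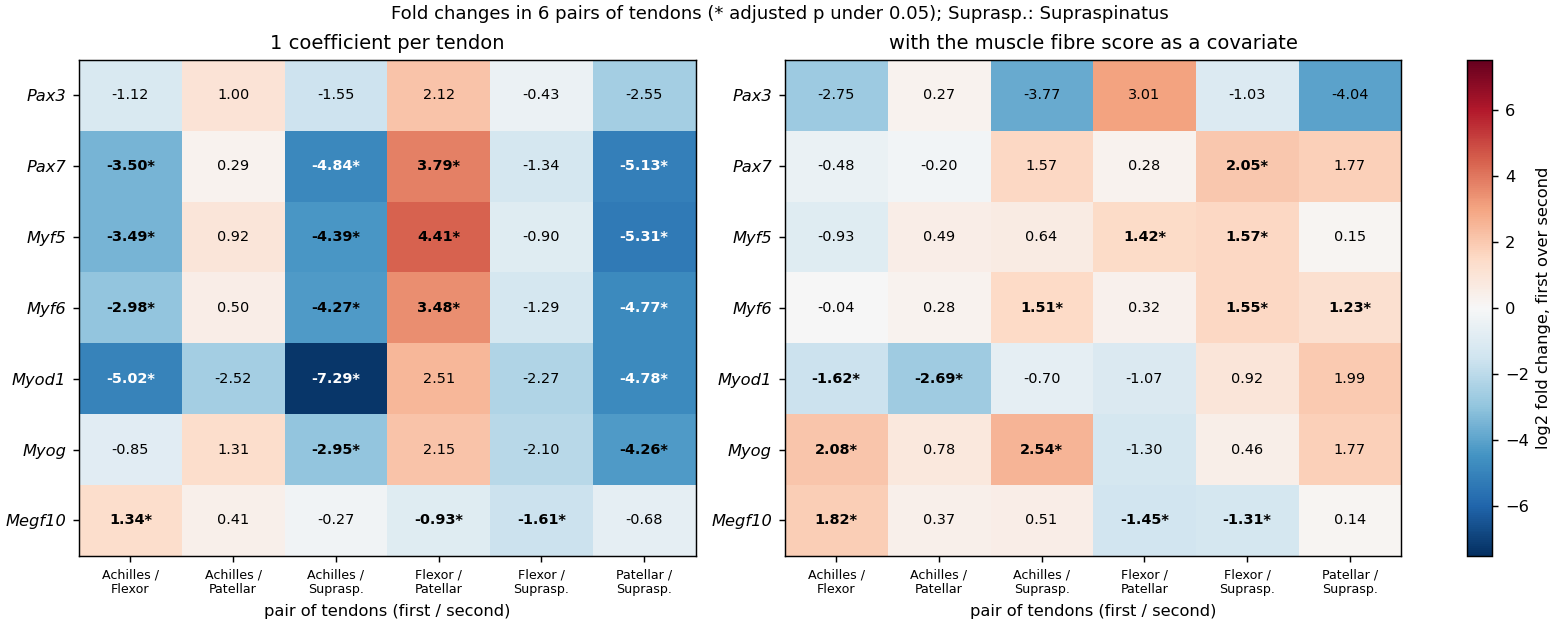
Log2 fold changes of the 7 genes in the 6 pairs of tendons, first over second, from the fit with 1 coefficient per tendon (left) and with the muscle fibre score added as a covariate (right); asterisks mark an adjusted p under 0.05. The values of Achilles and patellar over supraspinatus between -2.95 and -7.29 at left lie between -0.70 and 2.54 at right for Pax7, Myf5, Myf6, Myod1 and Myog.

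The levels were then set against muscle fibre content, as CPM of a gene for each 1% of the library taken by the 20 fibre markers. Myf6 stood at 9.79 to 10.9 in the flexors, 4.56 to 6.54 in supraspinatus, 5.31 to 9.36 in Achilles and 3.44 to 8.92 in patellar libraries. Over all libraries that is 3.44 to 10.9, while its CPM spanned 0.221 to 169. Relative to fibre, Myf5 was at 0.824 to 1.14 in the flexors and 0.309 to 0.42 in supraspinatus, and Pax7 at 0.289 to 0.435 and 0.176 to 0.223. The flexors thus had the more Pax7, Myf5 and Myf6 per fibre marker without overlap, although supraspinatus had the more in CPM. Any gene that follows the fibre share less than in proportion gives a higher value in the flexors by this measure. Megf10, lower in the flexors in CPM, was at 0.708 to 1.04 there and at 0.451 to 0.836 in supraspinatus libraries. The share of all genes that separate in this way was not counted. Myod1 was at 2.1 to 3.44 in the flexors and 2.31 to 3.47 in supraspinatus, where the ranges overlapped, against 0.405 to 0.625 in Achilles and 0.357 to 2.43 in patellar libraries. Myog went the other way, at 1.91 to 4.41 in Achilles against 0.647 to 1.58 in flexor and 0.696 to 1.75 in supraspinatus libraries, with patellar libraries from 0.884 to 4.64.

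A fit with the mean log2 CPM of the fibre markers as a covariate tested these differences across all genes. Among the 4 tendons the same 6 genes differed, against 55.9% of all genes. In flexor over supraspinatus Pax7 (2.05 ± 0.67, adjusted p = 0.027), Myf5 (1.57 ± 0.35, adjusted p = 0.0033) and Myf6 (1.55 ± 0.21, adjusted p = 0.00011) were higher and Megf10 lower (-1.31 ± 0.33, adjusted p = 0.0073), against 37.6% of all genes. In Achilles over flexor Myog was higher (2.08 ± 0.46, adjusted p = 0.004) and Myod1 lower (-1.62 ± 0.51, adjusted p = 0.028), and Megf10 was higher as before (1.82 ± 0.39, adjusted p = 0.0032), against 30.6% of all genes. Myog was also higher in Achilles than in supraspinatus tendon (2.54 ± 0.65, adjusted p = 0.024), as was Myf6 (1.51 ± 0.32, adjusted p = 0.0091), against 11.2% of all genes. Myod1 was lower in Achilles than in patellar tendon (-2.69 ± 0.44, adjusted p = 0.0048, against 5.32% of all genes). Myf5 was higher (1.42 ± 0.45, adjusted p = 0.027) and Megf10 lower (-1.45 ± 0.41, adjusted p = 0.015) in flexor than in patellar tendon, against 31.3%, and Myf6 was higher in patellar than in supraspinatus tendon (1.23 ± 0.33, adjusted p = 0.028), against 13.1%. Fibre content did not overlap between supraspinatus and any other tendon, nor between Achilles and flexor libraries. These comparisons thus rest on the covariate's slope beyond a shared range. The markers of the score also moved apart in the fit without the covariate. In Achilles over flexor Myh7 was higher (5.07 ± 1.45) and 13 of 20 markers lower, against 23.5 and 24.1% of all genes. In Achilles over patellar tendon Tnni1, Tnnc1, Tnnt1 and Myh7 were higher and Pvalb and Actn3 lower, against 3.1 and 2.06%. The score and the summed share may therefore carry fibre type as well as fibre content, which was not tested.

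**Figure D4:**
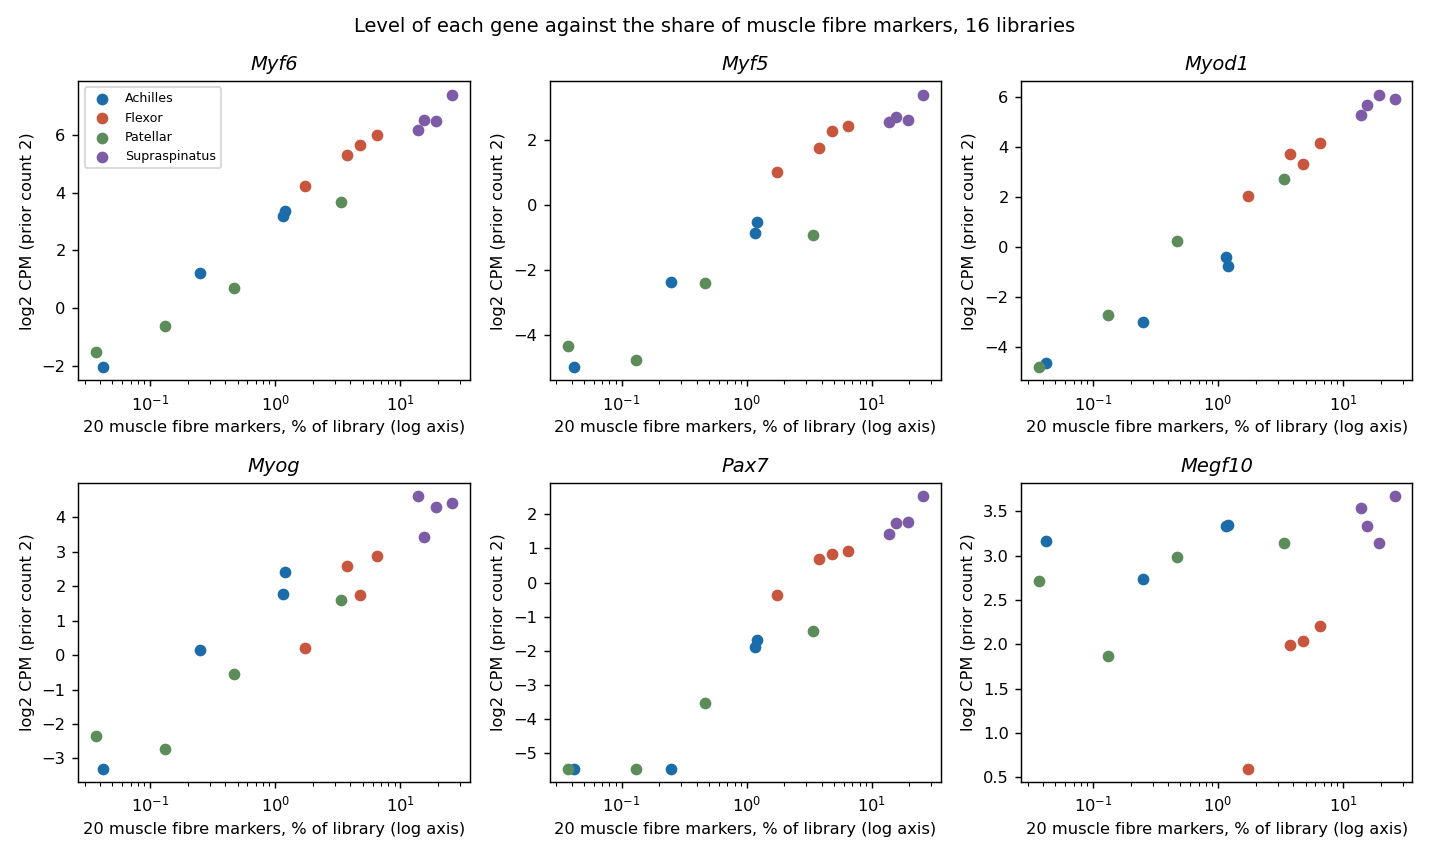
Log2 CPM (prior count 2) of 6 genes against the summed share of 20 muscle fibre markers in percent on a log axis, 16 libraries coloured by tendon. Myf6, Myf5, Myod1, Myog and Pax7 climb with the fibre share, and Megf10 shows no such climb across the tendons. Achilles 2 to 4 (shares of 0.249 to 1.2%) lie low for Myod1 and high for Myog at their share. Of the other tendons only patellar 4 (0.467%) lies within that range of shares.

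The ratio of Myog to Myod1 counts within a library set the Achilles tendon apart from the forelimb tendons. It was 4.5, 9.43, 10.8 and 4.72 in Achilles 1 to 4, against 0.282 to 0.459 in the flexors and 0.21 to 0.638 in supraspinatus libraries. In patellar 1 to 4 it was 0.455, 1, 13 and 0.584. The ratio of Achilles 1 rests on 9 and 2 counts, with an exact 95% interval of 0.931 to 42.8, and that of patellar 3 on 13 and 1 counts, with an interval of 1.95 to 552, which cover counting error only. The mean log2 ratio was higher in Achilles than in flexor tendon by 4.23 and than in supraspinatus tendon by 4.31, with an exact permutation p of 0.0286 in each, two-sided, the smallest that 4 against 4 libraries can give. Adjusted over the 6 pairs compared it was 0.0857, above the threshold, and the ratio was chosen after the counts had been seen.

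Slow and fast fibre genes are given beside this ratio. The troponin genes of slow fibres (Tnnt1 and Tnni1) relative to those of fast fibres (Tnnt3 and Tnni2) were at 3.3, 3.05 and 3.87 in Achilles 2 to 4. The same ratio was 0.0547 in Achilles 1, 0.0752 to 0.101 in the flexors and 0.0315 to 0.155 in supraspinatus libraries. In patellar 1 to 4 it was 0.000742, 0.067, 0.5 and 0.00721, and these libraries ranked in the same order in both ratios. The supraspinatus libraries also ranked alike in both ratios, from supraspinatus 3 (0.0315 with 0.21) to supraspinatus 2 (0.155 with 0.638). The flexors did not rank alike. Flexor 2 had the lowest slow to fast ratio (0.0752) with the highest Myog to Myod1 ratio (0.459). Flexor 4 had the highest slow to fast ratio, 0.101, with 0.33. Achilles 1 was lowest of its tendon in both ratios (0.0547 with 4.5). Among Achilles 2 to 4 the highest slow to fast ratio (Achilles 4, 3.87) went with the lowest Myog to Myod1 ratio (4.72). The part of fibre type in the Myog to Myod1 ratio was not tested.

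**Figure D5:**
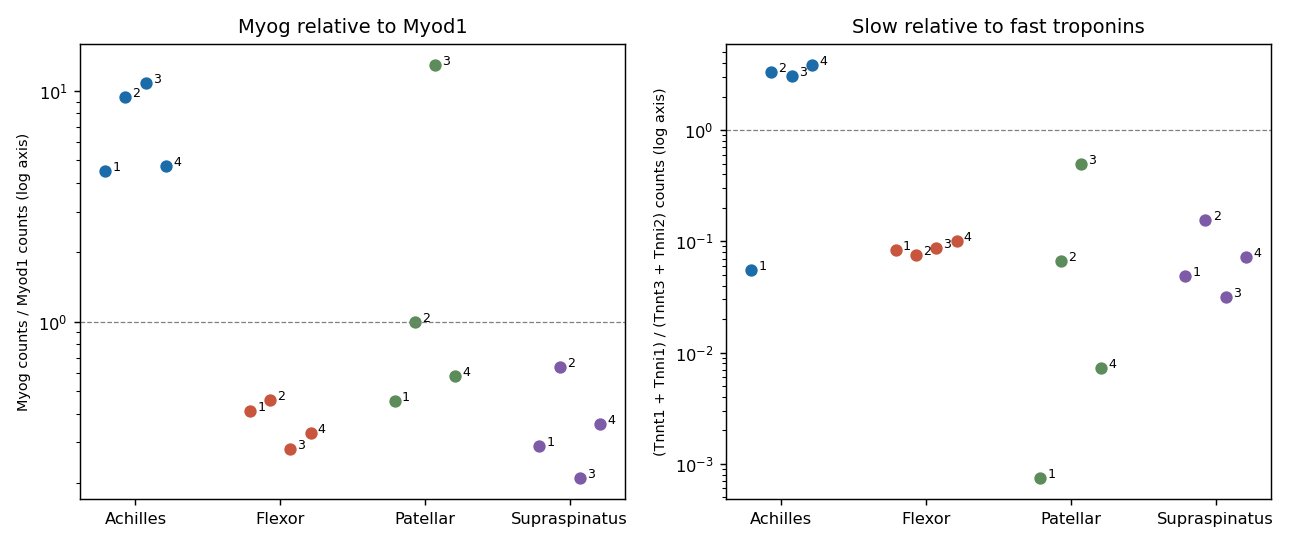
Ratio of Myog to Myod1 counts (left) and of slow to fast troponin counts (right) in each of 16 libraries, on log axes, with library numbers beside the points and a dashed line at a ratio of 1. All Achilles libraries lie above 1 at left, at 4.5 to 10.8, and Achilles 2 to 4 but not Achilles 1 lie above 1 at right.

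The genes most like each member over the 16 libraries were read from 12779 named genes with a mean of at least 1 CPM in a tendon, by Pearson r of log2 CPM. For Myf6 they were Ryr1, Neb, Txlnb, Asb5 and Nrap (0.995 to 0.996), of which Ryr1, the calcium release channel, and Neb, the thin filament ruler protein, were among the fibre markers. For Myod1 they were Tnnc2, Dhrs7c, Tnni2, Mylpf and Myoz1 (0.991 to 0.995), 3 of them fast fibre markers (Tnnc2, Tnni2 and Mylpf). Pax7 was most like Asb15, Tmod4, Unc45b, Scn4b and Adssl1 (0.983 to 0.989), and Myf5 most like Scn4b, Art1, Tmod4, Dok7 and Arpp21 (0.985 to 0.990). For Myog they were Tceal7, Myadml2, Ckmt2, Synpo2l and Apobec2 (0.968 to 0.976), of which Ckmt2 encodes mitochondrial creatine kinase of muscle. The closest genes to Megf10 (Aars, Map3k7cl, Ncald, Slc35b1 and Naa10, 0.862 to 0.880) and to Pax3 (Hspa12a, Nfasc, Slc34a2, Iqcc and Prdm10, at most 0.860) were less alike. None of these was among the fibre markers, and neither was any of the genes named for Pax7, Myf5 and Myog.

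Other genes of the myogenic pathway were read from role lists chosen with earlier results of these data known. Of 14 upstream and partner factors (among them Lbx1 and genes of the Eya, Mef2, Pitx and E-protein families), all 14 differed among the tendons, where 75.6% of all genes did. In Achilles over flexor 10 were lower and none higher, against 24.1% of all genes lower, led by Mef2d (-2.45 ± 0.19, adjusted p = 5e-07) and Eya1 (-5.36 ± 0.64, adjusted p = 1.4e-05). In flexor over patellar tendon 9 were higher and none lower, against 25.8% of all genes higher, led by Mef2d (2.27 ± 0.19) and Lbx1 (5.94 ± 0.85, adjusted p = 5.3e-05). Lbx1, a factor of muscle precursors that migrate into the limb, averaged 11.5 ± 5.49 CPM in the flexors. Its mean was 2.05 ± 0.261 CPM in supraspinatus libraries, and the Achilles (0.15 ± 0.151 CPM) and patellar (0.185 ± 0.132 CPM) means were near the detection limit. In Achilles over supraspinatus 9 of the 14 were lower and none higher, against 24.7 and 25.4% of all genes, with a median log2 fold change of -1.14. In patellar over supraspinatus 9 were lower and 1 higher, against 27.5 and 28.8%. The forelimb pair was mixed, with 6 higher and 3 lower in flexor than in supraspinatus tendon, against 23.4 and 24.3% of all genes, and a median of 0.04.

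Satellite cell surface and quiescence genes were mixed in direction. Of 19 such genes 18 differed among the tendons, against 75.6% of all genes, but in Achilles over supraspinatus 7 were higher and 6 lower, against 25.4 and 24.7%. The lower ones were led by Cdh15, the cadherin of satellite cells and myoblasts (-3.36 ± 0.44, adjusted p = 3.1e-05), and Chrdl2 (-3.57 ± 0.47, adjusted p = 3.2e-05). The higher ones were led by Vcam1 (2.16 ± 0.31, adjusted p = 5.6e-05). Between flexor and supraspinatus tendon 7 were higher and 6 lower in the flexors, against 23.4 and 24.3% of all genes, led by the Notch target Hes1 (3.34 ± 0.26, adjusted p = 5.3e-07) and the syndecan gene Sdc3 (2.34 ± 0.26, adjusted p = 8e-06). Hes1 stood at 52.4 ± 4.89 CPM in the flexors and at 5.17 ± 1.13 in supraspinatus tendon. Of the genes lower in the flexors, Itga7 had the smallest adjusted p (-1.60 ± 0.27, adjusted p = 0.00025). The genes of this list are also expressed by other cell types, whose part was not tested.

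Inhibitors of myogenic factors were higher in Achilles than in supraspinatus tendon for 6 of 9 genes and lower for none, with a median of 0.88, against 25.4% of all genes higher. They were led by Id3, which sequesters the partners of helix-loop-helix factors (1.45 ± 0.18, adjusted p = 1.7e-05), and the repressor gene Snai1 (1.01 ± 0.13, adjusted p = 2e-05). In patellar over supraspinatus 6 were higher and 1 lower, against 28.8 and 27.5% of all genes. The lower one was Mstn (-3.85 ± 1.03, adjusted p = 0.0055), which was at -2.22 ± 0.95 in Achilles over supraspinatus (adjusted p = 0.067). The part of other cell types in the levels of these inhibitors was not tested. Of 10 measured fusion and early differentiation genes 6 were lower and none higher in Achilles than in supraspinatus tendon, against 24.7 and 25.4% of all genes, led by the perinatal myosin gene Myh8 (-7.63, adjusted p = 2.8e-05) and desmin (Des, -3.54 ± 0.58, adjusted p = 0.00018). The flexors had 5 lower and 1 higher than supraspinatus tendon, against 24.3 and 23.4% of all genes, led by Mymk, the membrane activator of myoblast fusion (-3.30 ± 0.51, adjusted p = 0.00012), and the adhesion gene Jam2 (adjusted p = 0.00058). Mymk was low throughout, averaging 1.27 ± 0.444 CPM in supraspinatus libraries and 0.128 ± 0.0901 CPM in the flexors. The Myh8 values are uncertain, since its sequence is close to that of other myosin heavy chain genes.

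The authors' deposited table lists 6 of the 7 genes, without Pax3. For Achilles over supraspinatus the authors' deposited table gives Myod1 a log2 fold change of -6.88 (FDR 0.0011) and Myog -2.55 (FDR 0.033). Calls differed from the fit to all 16 libraries in 3 places. In flexor over supraspinatus the authors' deposited table puts Myog past 0.05 at -2.15 (FDR 0.036), where the fit gave -2.10 ± 0.98 (adjusted p = 0.091). In flexor over patellar tendon the authors' deposited table passes Myod1 at 2.47 (FDR 0.047) and Myog at 2.12 (FDR 0.044), where the fit gave adjusted p of 0.059 and 0.089.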

How the data were processed

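RNA sequencing counts of 16 libraries from 4 rat tendons were used, grouped by the tendon in the titles. The authors deposited a table of raw read counts, with Ensembl gene IDs in rows and libraries in columns. The submitters' processing notes name HISAT2, FastQC, edgeR and rn6, with no version. How reads were counted, and whether by strand, is not given in the sources used here. Another table that the authors deposited holds log2 fold changes, p-values and adjusted p-values for the 6 pairs, per the file headers.

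Genes were filtered with filterByExpr (minimum count 10, minimum total 15) and scaled by TMM, and edgeR 4.0.16 (R 4.3.3) fitted a quasi-likelihood model to the 16 libraries, with a coefficient for each tendon and 12 residual degrees of freedom. P-values were adjusted over all 16948 genes within a comparison, with a threshold of 0.05, and each SE was derived from the fold change and its F statistic. For genes fitted below Poisson variance edgeR raises p to a Poisson bound, so SE and p need not correspond, as for Myf5 in Achilles over supraspinatus with the covariate. A prior count of 2 was used for log2 CPM. Alternatives were DESeq2 1.42.0 and its size factors, limma-voom (limma 3.58.1), library totals, other filters, a 2-fold threshold, a replicate block, the fibre covariate, pair-only fits and fits without libraries.

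The 7 genes, the role lists and the markers were chosen with earlier results of these data known. All 7 genes are named in full, other genes by smallest adjusted p in their list (2 per list and comparison) or highest r (5 per gene, clone and locus names left out). Lbx1, Hes1 and Mymk levels, the Myog to Myod1 ratio and the levels per fibre share were chosen after values were seen. So were the values of Mitf, Pmel, Mstn, Vcam1, Itga7 and single fibre markers. Python 3.11.15 was used for ratios and figures.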

Additional observations from a re-analysis of the deposited data

Results flagged for a closer look

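In 3 of 32 sets of 4 libraries (7 genes and the log2 Myog to Myod1 ratio in each tendon) 1 library lay far from the other 3, by Dixon's criterion at the 95% level, and about 1 in 20 is expected by chance. Pax3 was at 0.673 CPM in Achilles 1. Myf6 was at 12.8 CPM in patellar 1, the patellar library with 3.37% of fibre markers. Myf5 was at 10.4 CPM in supraspinatus 4, which had the largest fibre share, 25.8%.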

How the results depend on the processing

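Of 1120 fold changes refitted for the 7 genes and 6 pairs, 1031 kept direction and side of the threshold, 38 passed newly, 21 no longer passed and 30 changed sign, 20 of the latter with the fibre covariate. With that covariate 3 genes were called in Achilles over flexor, 1 in Achilles over patellar, 2 in Achilles over supraspinatus, 2 in flexor over patellar, 4 in flexor over supraspinatus and 1 in patellar over supraspinatus. The sign changes with it were, over supraspinatus, Pax7 1.57 (Achilles), 2.05 (flexor) and 1.77 (patellar), Myf5 0.64, 1.57 and 0.15, and Myf6 1.51, 1.55 and 1.23 in the same order. Myod1 gave 0.92 in flexor and 1.99 in patellar over supraspinatus, Myog 2.54, 0.46 and 1.77, and Megf10 0.51 in Achilles and 0.14 in patellar over supraspinatus. Myog gave 2.08 in Achilles over flexor, and flexor over patellar gave -1.07 for Myod1 and -1.30 for Myog. Pax7 in Achilles over patellar was -0.20 with the covariate and -0.03 with limma-voom. Megf10 in Achilles over supraspinatus was 0.14 on library totals. In all these the cause was not tested.

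In flexor over supraspinatus 1 gene was called, against 4 with limma-voom, 5 from these libraries alone and 4 without Achilles 1 and patellar 1. Leaving those 2 libraries out, Achilles over patellar had 3 calls in place of 0, with Pax3 at -0.57, Pax7 at 2.93 and Myod1 at 0.09. Without 1 library each, the calls ran from 6 to 7 among the 4 tendons, 4 to 6 in Achilles over flexor, over supraspinatus and in flexor over patellar, 1 to 3 in flexor over supraspinatus, 5 to 7 in patellar over supraspinatus, and were 0 throughout in Achilles over patellar. In Achilles over patellar the fold ranged from -2.30 to 2.72 for Pax3 from -0.44 to 2.50 for Pax7, and from -3.15 (without Achilles 4) to -0.32 (without patellar 1) for Myod1. Flexor over supraspinatus ranged from -0.74 to 0.20 for Pax3, and the log2 Myog to Myod1 difference from -0.16 to 0.38. For the call counts without 1 library, the share of all genes is given above for some fits only.

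With the replicate block the calls were 5, 0, 5, 5, 1 and 6 in the 6 pairs. Their order is Achilles over flexor, patellar and supraspinatus, flexor over patellar and supraspinatus, patellar over supraspinatus. The share of all genes called with the block is not given here, so these counts have no background to be read against. Same-numbered libraries correlated at -0.21 to 0.37 in their deviations from tendon means, above 0.1 in 9 of 24 pairs. However, 10 of 16 libraries correlated best with a library of their own number. That is more than random choice among the libraries of the other tendons would give on average, and it was not tested. These values do not settle whether the numbers pair the libraries. The labels do not say so, and the block was therefore kept as an alternative. The block brought 2 values past the threshold, Myod1 in flexor over patellar (3.14, adjusted p = 0.029) and Pax3 in patellar over supraspinatus (-3.12, adjusted p = 0.037). Genes that failed the filter of 1 CPM in 8 libraries, or that of a pair's own libraries, have no value there. Pax3 and Pax7 had 0 to 5 counts in several hindlimb libraries, which limits the precision of their folds there.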
